A study of Homo sapiens with 2 samples.

Results

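The genes described here are 54 genes of DNA replication and of the passage from G1 into S phase. They were chosen by name, from E2F factors and cyclin E to the replicative polymerases, and every probe set whose platform annotation gave exactly 1 of these symbols was taken. All 54 genes were found, with 102 probe sets, and all 54 passed the filter on low signals, against 12531 genes passing in the whole series. The array held 4 further probe sets annotated to PRIM2 together with a second gene, and these were not used.

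Before a cell copies its DNA, the origin recognition complex, CDC6 and CDT1 load the MCM helicase onto replication origins. Cyclin E with its kinase, and the kinase that DBF4 activates, then start the helicase through CDC45 and the GINS complex, and primase, polymerases and the PCNA clamp build the new strands. Many of these genes are transcribed by E2F factors once the retinoblastoma protein releases them, so that their transcripts follow the share of cells in late G1 and S phase. Beta-catenin, the product of CTNNB1, is the transcriptional effector of canonical Wnt signalling and is known as a driver of proliferation in several epithelia.

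Both samples were HCC15 cells, an established line from a human lung cancer classed as squamous in the labels, grown in RPMI medium with serum. One culture received a control siRNA and 1 culture received an siRNA against CTNNB1, and RNA was taken 48 h after transfection. The control is titled HCC15-Tax, and the labels do not name a target for its siRNA. The series title places the comparison in CTNNB1-mutated lung cancer, and both arrays come from that single line.

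Each group was 1 array. No test between the conditions was possible, no value below has a replicate, and each difference holds whatever else differed between the 2 cultures and hybridisations. As a measure of error, the SD of log2 ratios between probe sets of the same gene was 0.42 over all genes and 0.36 over the 29 members read by several probe sets (67 probe sets). It holds the error of probe sets and differences between isoforms, and leaves out how cultures vary. Fewer cells in S phase and less transcript per cell cannot be told apart in bulk RNA.

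Facts of the whole array pair set the frame for the members. The CTNNB1 transcript, read by 3 probe sets, was at 27.7% of its control signal in the brightest (1224 against 339) and at 51% and 91.3% in the other 2. The median log2 ratio of all 12531 genes, CTNNB1 siRNA over control siRNA, was 0.15 in the deposited scaling, and it ran from -0.23 in the dimmest of 10 signal deciles to 0.27 in the brightest. A ratio near 0.15 is therefore the middle of the array pair, and the members' median is set beside it. Where a single gene is called higher or lower without that value, its deposited signals on the 2 arrays are compared. All 5 epithelial markers passed the signal filter. Of 8 squamous markers listed, 6 had a probe set annotated to that gene alone, and TP63 and KRT6A were not read. Of the 6, only SFN and SOX2 passed, and KRT5, KRT14, DSG3 and PKP1 read under 40 on both arrays. Of 4 lung adenocarcinoma markers 3 passed (SFTPB with 165 and 172, SFTPC with 107 and 191, NAPSA with 56.2 and 65.6), and NKX2-1 read 20.5 and 7.6. The epithelial marker CDH1 read 939 and 594. Fibroblast, leukocyte and endothelial markers with such a probe set passed in 2 of 5, 1 of 3 and 1 of 4 cases, with signals under 100. The leukocyte list held 5 markers.

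The members as a whole lay close to the middle of all genes. Their median log2 ratio was 0.17, against 0.15 for all genes, and 30 of 54 lay above the all-gene median. One member, the transcription factor gene E2F3, was at least 2-fold higher with CTNNB1 siRNA, and none was at least 2-fold lower. Over all genes 2.29% were at least 2-fold higher and 2.38% at least 2-fold lower. At 1.5-fold, 4 of 54 members were higher (E2F3, UHRF1, MCM10 and CCNE1), 7.41% of them, where 11.2% of all genes were, and no member was lower, where 7.61% of all genes were. A share near or under the background is no result about these genes.

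**Figure D1:**
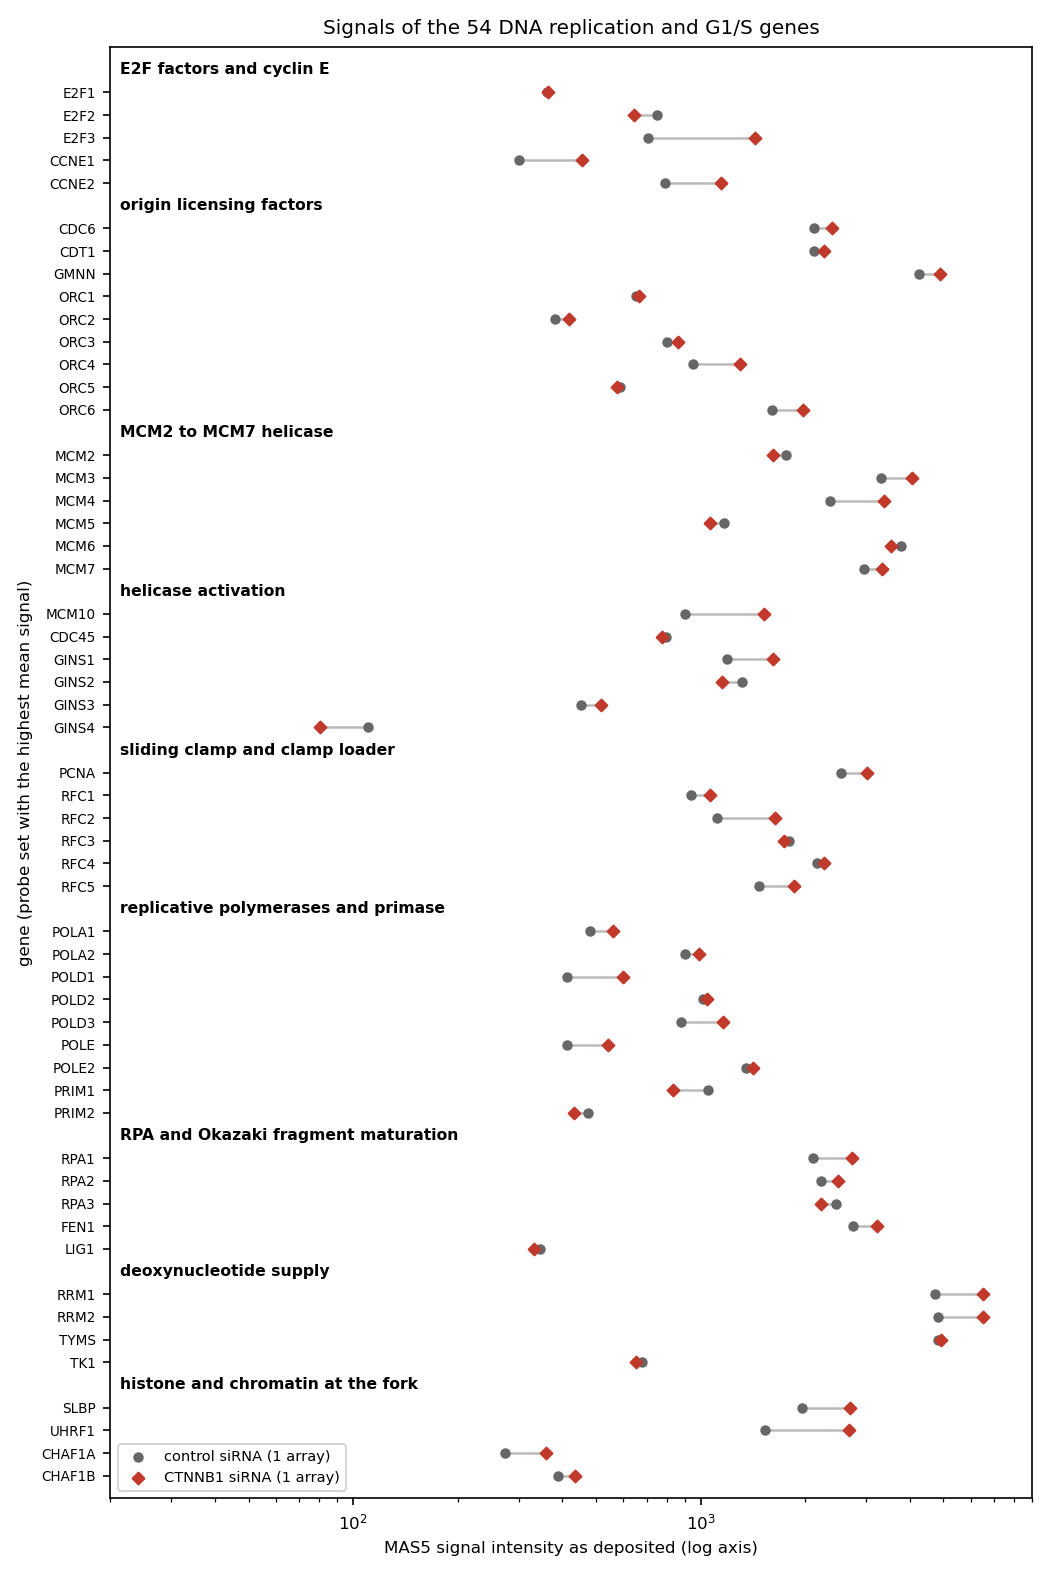
Deposited signal intensity of each of the 54 genes on the control siRNA array (grey circles) and the CTNNB1 siRNA array (red diamonds), 1 array each, on a log axis, with genes ordered by role; levels are to be compared within a gene and not between genes. The widest gap upward is that of E2F3, from 706 to 1435, and most pairs of points lie close together.

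Signal mattered for that reading, because 50 of the 54 members lay in the upper 5 signal deciles of all genes, where ratios were higher in general. Signals whose mean reached the 75th percentile of all values, 209, belonged to 7913 genes and to 53 of the members. These genes had a median of 0.23, 11.9% of them were at least 1.5-fold higher, 2.09% at least 1.5-fold lower, and 60.2% lay above the median of all genes. The 53 members had a median of 0.18, with 4 and 0 past 1.5-fold, and 56.6% of them lay above the median of all genes. Set against the median of its own signal decile, a member lay above in 21 cases and below in 32, with a median difference of -0.07. After a loess correction, which removes the trend of the ratio with signal, the members' median was likewise -0.07, with 21 genes above 0 and 33 below, and that of all genes was -0.02. At least 1.5-fold higher after loess was 1 member, E2F3, where 6.57% of all genes were, and 47.4% of all genes lay above 0.

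**Figure D2:**
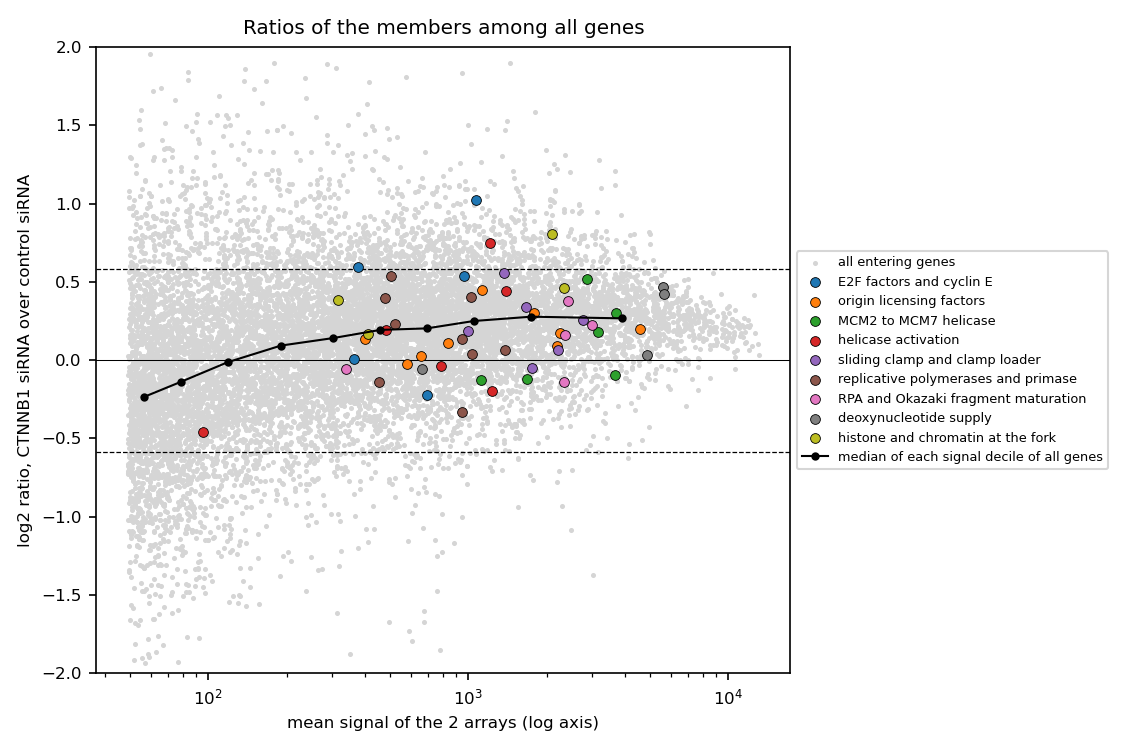
Log2 ratio of CTNNB1 siRNA over control siRNA against the mean signal of the 2 arrays (log axis) for all 12531 genes (grey) and the 54 members coloured by role; dashed lines mark 1.5-fold, the black line joins the medians of the signal deciles, and 43 genes beyond a log2 ratio of 2 in size lie outside the plot. Members scatter on both sides of the black line, and 4 of them lie above the upper dashed line.

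The E2F factors and E-type cyclins held both the highest ratio of all members and ratios below 0. E2F3, an activating E2F, read 706 with control siRNA and 1435 with CTNNB1 siRNA, a 2.03-fold difference. Its second probe set read 177 and 229, a log2 ratio of 0.37 against 1.02, so the 2-fold difference rests on 1 probe set. It fell short of 2-fold, at log2 ratios of 0.77 to 0.87, after loess, quantile normalization, centring or scaling to a common trimmed mean. Both E2F3 probe sets have names ending in _s_at, a class that can take signal from related transcripts.

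E2F1, the factor most closely tied to S phase entry, read 362 and 363, and its second probe set 181 and 215. E2F2, another activator, read 748 and 642, a log2 ratio of -0.22. The 3 activating E2F genes thus stood at different places relative to the all-gene median, E2F3 by 0.87 above it, E2F1 by 0.14 and E2F2 by 0.37 below it.

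Both E-type cyclins were higher. CCNE1, which encodes cyclin E1, the partner of CDK2 at the start of S phase, read 301 and 455 (1.51-fold). CCNE2, for cyclin E2, read 789 and 1143 (1.45-fold), and its second probe set 168 and 309 (a log2 ratio of 0.88). Relative to the all-gene median they were 0.45 and 0.39 above, just beyond the member probe set SD of 0.36.

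Promoter sequences of 5 members are shown to set genes at the upper end (E2F3, UHRF1), the middle (E2F1) and the lower end (E2F2, GINS2) side by side at the element through which E2F factors are known to act. Only stretches that hold a match to this element were taken, so its presence in all 5 was fixed by the choice. Each is the 150 bases before the RefSeq transcription start (GRCh38.p14), 5′ to 3′ on the gene's strand, and capitals mark matches to TTTCCCGC, TTTCGCGC, TTTGGCGC or TTTGCCGC on either strand.
E2F3 (chr6:20401729-20401878, plus strand): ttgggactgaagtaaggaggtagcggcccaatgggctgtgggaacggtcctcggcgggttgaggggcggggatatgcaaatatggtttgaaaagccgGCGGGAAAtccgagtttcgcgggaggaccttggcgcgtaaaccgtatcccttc
UHRF1 (chr19:4909351-4909500, plus strand): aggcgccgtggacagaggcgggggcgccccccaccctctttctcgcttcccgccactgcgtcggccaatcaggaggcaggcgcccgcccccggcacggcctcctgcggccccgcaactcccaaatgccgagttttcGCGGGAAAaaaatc
E2F1 (chr20:33686386-33686535, minus strand): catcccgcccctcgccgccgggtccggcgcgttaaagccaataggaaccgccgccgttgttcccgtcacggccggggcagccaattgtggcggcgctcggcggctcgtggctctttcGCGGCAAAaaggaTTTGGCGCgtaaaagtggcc
E2F2 (chr1:23531234-23531383, minus strand): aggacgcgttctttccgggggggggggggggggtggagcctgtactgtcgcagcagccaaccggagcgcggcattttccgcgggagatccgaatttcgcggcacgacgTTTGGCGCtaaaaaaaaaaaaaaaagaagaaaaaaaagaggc
GINS2 (chr16:85688955-85689104, minus strand): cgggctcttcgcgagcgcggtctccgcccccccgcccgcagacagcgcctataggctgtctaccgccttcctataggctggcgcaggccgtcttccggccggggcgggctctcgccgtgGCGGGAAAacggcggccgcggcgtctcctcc

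In the stretches shown the matches begin between 53 and 14 bases before the start site, which a script recorded as positions -53 (E2F3), -14 (UHRF1), -33 and -20 (E2F1), -42 (E2F2) and -31 (GINS2). E2F3 has 2 listed start sites and UHRF1 has 3, and the stretch shown for each belongs to the only start with a match in its 150 bases. RefSeq promoter windows of 300 bases, from 250 before to 50 after the start, were matched for 47 of the 54 members by symbol, and 7 (CCNE2, MCM4, MCM5, GINS4, POLD3, RPA2 and RPA3) had none in the table. At least 1 of the 4 spellings stood in 24 of 61 member windows (39.3%), against 3.31% of all 35116 windows. CCAAT, another element common in cell cycle promoters, stood on either strand in 34 of the 61 (55.7%) and in 34.6% of all windows.

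Ratios of members with and without an E2F spelling overlapped widely. The 23 members with a match had a median log2 ratio of 0.14, from -0.22 to 1.02, and the 24 without had a median of 0.26, from -0.33 to 0.75. Of the 4 members at least 1.5-fold higher, E2F3 and UHRF1 had a match, and MCM10 and CCNE1 had none of these exact letters in their windows. A match is a description of the sequence, and its absence says only that these spellings are not in that window.

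The origin licensing genes lay near the all-gene median, and none reached 1.5-fold. ORC4, a subunit of the origin recognition complex, had the highest ratio of the 9 (952 and 1301, 1.37-fold; 161 and 189 in its second probe set). ORC6 read 1601 and 1976, a log2 ratio of 0.30. The other complex subunits stayed closer to 0, with log2 ratios of 0.03 for ORC1, 0.13 for ORC2, 0.11 for ORC3 and -0.03 for ORC5. A second ORC2 probe set went the other way, from 366 to 241.

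CDC6, the ATPase that joins the complex to load the helicase, read 2126 and 2395, with 1882 and 2196 in its second probe set. CDT1, its loading partner, read 2120 and 2262, and its second probe set 292 and 255. GMNN, for geminin, the inhibitor of CDT1 that is present from S phase to mitosis, read 4265 and 4891 (1.15-fold). The loader and its inhibitor therefore had log2 ratios of 0.09 and 0.20, a gap smaller than the probe set SD.

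The subunits of the MCM2 to MCM7 helicase, a ring in which each subunit is needed, did not share a direction in the deposited scaling. MCM4 was highest, with 2362 and 3377 (1.43-fold), and its other probe sets past the filter read 1084 and 1632, 579 and 644, and 105 and 226. MCM3 read 3305 and 4076, and MCM7 read 2953 and 3339. MCM2 (1760 and 1618), MCM5 (1168 and 1068) and MCM6 (3789 and 3541) were slightly lower on the CTNNB1 siRNA array. This split depended on the scaling. With a common median these 3 had log2 ratios of 0.014, 0.007 and 0.038, and after loess MCM7 was at -0.09.

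All 4 MCM4 probe sets lay above 0, from 0.15 to 1.11 on the log2 scale. Both MCM5 probe sets read -0.13, and the second MCM6 probe set read -0.41 (184 and 139). The helicase genes had a median log2 ratio of 0.04, under the 0.15 of all genes, and 3 of 6 lay on each side of that value.

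Of the genes that switch the helicase on, MCM10 differed most and its probe sets disagreed most. MCM10, which binds the loaded helicase at the moment of firing, read 904 and 1519 in its probe set of highest mean signal (1.68-fold). Its other probe sets read 855 and 883, and 447 and 1144. Their log2 ratios of 0.75, 0.05 and 1.36 span 1.31, more than 3 times the member probe set SD of 0.36. The ratios of 0.75 and 1.36 came from probe sets with names ending in _s_at, and that of 0.05 from a probe set without that ending.

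CDC45, the helicase cofactor, read 797 and 777. The 4 subunits of GINS, the other cofactor, went both ways. GINS1 read 1190 and 1614 (1.36-fold), and GINS3 read 452 and 516. GINS2 read 1316 and 1150, and its dimmer probe sets were lower as well (98.2 and 81.9, 109 and 58.7). GINS4 was the one member below the 75th percentile of signal. It read 111 and 80.5, a log2 ratio of -0.46, 61.4 and 50.5 in a second probe set, but 70.3 and 93.5 in another, so 2 of its 3 probe sets past the filter were lower.

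The sliding clamp and its loader had a median log2 ratio of 0.22. PCNA, the clamp that tethers polymerases to DNA and a standard proliferation marker, read 2529 and 3016 (1.19-fold). RFC2, a subunit of the clamp loader, stood highest with 1112 and 1634 (1.47-fold), and its second probe set read 663 and 1029, 155% of the control. RFC4 read 2166 and 2269, RFC3 read 1793 and 1735, and RFC1, the large subunit, read 936 and 1067. RFC5 read 1469 and 1860, with 527 and 684 in a second probe set but 794 and 526 in another.

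Among the replicative polymerases, the catalytic subunits of the leading and lagging strand enzymes had higher ratios than the primase. POLD1, the catalytic subunit of polymerase delta, read 413 and 600.0 (1.45-fold). POLE, that of polymerase epsilon, read 412 and 543 (1.32-fold), and POLA1, that of polymerase alpha, read 480 and 562. PRIM1, the catalytic subunit of primase, read 1051 and 836, a log2 ratio of -0.33, and its partner PRIM2 read 476 and 432. PRIM1 was the lowest of the members above the 75th percentile of signal. POLD1, POLE, POLA1, PRIM1 and PRIM2 were each read by 1 probe set past the filter. Relative to the all-gene median, POLE (0.25), POLA1 (0.08) and PRIM2 (-0.29) lay within the member probe set SD of 0.36. POLD1 (0.39) and PRIM1 (-0.48) lay beyond it.

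The accessory subunits differed among themselves and between probe sets. POLD3 read 879 and 1164 in its main probe set and 180 and 117 in a second. POLA2 read 902 and 992, with 2 dimmer probe sets that were lower (114 and 74.4, 80.1 and 46.2). POLD2 (1019 and 1046) and POLE2 (1353 and 1415) differed by 1.03-fold and 1.05-fold. Single-stranded DNA is held by the RPA trimer, of which RPA1 (2102 and 2735) and RPA2 (2223 and 2489) were higher and RPA3 (2451 and 2226) lower. RPA2 lay only 0.01 above the all-gene median. FEN1, the flap nuclease of Okazaki fragments, read 2756 and 3220, and LIG1, the ligase that seals them, read 346 and 332.

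Within deoxynucleotide supply, ribonucleotide reductase had higher ratios than the thymidylate enzymes, though all 4 genes lay within the probe set SD of the all-gene median. RRM1, the large reductase subunit, read 4722 and 6519 (1.38-fold), and its second probe set 1480 and 2434. RRM2, the small subunit that is made in S phase, read 4842 and 6483 (1.34-fold), and its second probe set 4217 and 5856. TYMS, thymidylate synthase, read 4811 and 4930, and TK1, thymidine kinase, read 677 and 652. All 4 probe sets of the reductase had log2 ratios between 0.42 and 0.72, while the probe sets of highest mean signal of TYMS and TK1 had 0.04 and -0.05.

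All 4 genes of histone supply and chromatin copying lay above the all-gene median. UHRF1, which brings the maintenance methyltransferase to newly copied DNA, read 1529 and 2669 (1.75-fold), from a single probe set. SLBP, which binds the stem loop of replication-dependent histone transcripts, read 1963 and 2698 (1.37-fold). CHAF1A and CHAF1B, subunits of the assembly factor that puts histones behind the fork, read 274 and 359, and 388 and 436. After loess CHAF1B lay at -0.03 and the other 3 stayed above 0, UHRF1 at 0.53.

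Relative to the all-gene median, 43 of 54 members lay within 1 probe set SD. The 8 beyond it on the upper side were E2F3, UHRF1, MCM10, CCNE1, RFC2, POLD1, CCNE2 and MCM4. On the lower side were GINS4, PRIM1 and E2F2. Among all genes 15.1% lay as far above the all-gene median and 21.3% as far below, against 14.8% and 5.56% of the members. The shares of all genes include the dim deciles, with medians down to -0.23, and are not matched to the members in signal. Set against the median of their own signal decile, only E2F3, UHRF1, MCM10 and CCNE1 lay more than 1 probe set SD above. As far below were PRIM1, GINS4, GINS2, E2F2, RPA3, MCM2, MCM5 and MCM6, from -0.58 to -0.365. The share of all genes as far from their decile median was not computed. These names therefore give no result about the members as a group.

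**Figure D3:**
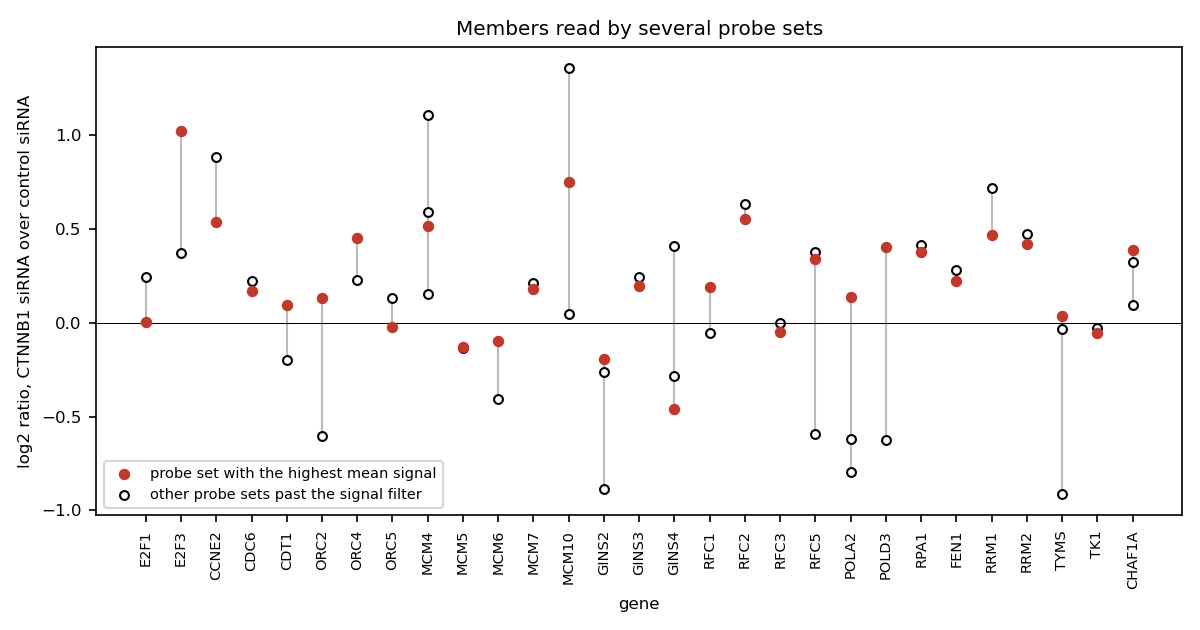
Log2 ratio of CTNNB1 siRNA over control siRNA for each probe set past the signal filter of the 29 members read by several; filled points mark the probe set with the highest mean signal and open points the others. MCM10, POLA2, POLD3, RFC5 and TYMS have probe sets far apart, while those of CDC6, MCM5, MCM7, RPA1 and FEN1 nearly coincide.

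Agreement between probe sets decided how far single genes could be read. Of the 29 members with several probe sets, 10 had ratios on both sides of 0 (34.5%, against 45.4% of the 5791 such genes on the array), and 2, MCM10 and POLD3, had log2 ratios more than 1 apart (6.90%, against 15.6%). The other 25 members were read by 1 probe set past the filter. These shares are not matched for signal. Among probe sets at or above the 75th percentile of signal, the SD between probe sets was 0.291 for all genes and 0.294 for members. In TYMS, GINS2, POLA2, POLD3, RFC5 and ORC2, a probe set past the filter other than that of highest mean signal read at most 66.2% of its control. Such probe sets also read higher, up to 256% of control in MCM10 and 216% in MCM4. Of the members' 38 such probe sets, 19 had a lower ratio than the one of highest mean signal and 19 a higher one. Probe sets of a gene can read different transcript ends, which the annotation used here does not separate.

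The other genes around replication, from lists drawn up by role, were described in the same way. Of 80 that passed the filter, 56 lay above the all-gene median (70%, against 55.6% of the members), with no test of the difference. Of the 7913 brighter genes, 60.2% did. The lists ran from 2 of 9 genes of checkpoint and fork repair to 10 of 11 histone chaperones and related genes. Against the median of their own signal decile, 36 of the 80 lay above and 44 below. After loess 31 lay above 0 and 49 below, where 47.4% of all genes lay above 0. Those 2 lists then had 1 of 9 and 6 of 11 above 0. The higher share was thus not seen once signal was taken into account. Among the 80, 9 were at least 1.5-fold higher (11.2% of all genes were) and none was at least 1.5-fold lower. The S phase kinases and their regulators held 4 of those 9. CDC25A, the phosphatase that activates CDK2, read 684 and 1249 (1.83-fold), and its other probe sets were higher still, up to a log2 ratio of 1.35. DBF4, the activating subunit of the CDC7 kinase, read 1389 and 2192 (1.58-fold). Its relative DBF4B read 77.1 and 160.0, near the low end of the filter and with 0.16 in a second probe set, and its 2-fold difference was lost with centring (0.90) and with a common trimmed mean (0.84). WEE1, the kinase that restrains CDK1 and CDK2, read 1187 and 1910.

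In the E2F, DP and RB families, E2F5, a repressive E2F, read 68.3 and 177 (2.59-fold), also near the low end of the filter. TFDP1, the dimer partner of E2F factors, read 873 and 1280, and its 3 probe sets lay between 0.51 and 0.64 on the log2 scale. Among further fork factors, the checkpoint adaptor CLSPN read 201 and 341, but its second probe set had a log2 ratio of -0.48, and the helicase RECQL4 read 494 and 769. SAMHD1, a dNTP hydrolase, read 601 and 1034, and the CTP synthase CTPS1 read 5110 and 7087. ATAD2, a chromatin ATPase and E2F partner, read 1361 and 2609 (1.92-fold), with a log2 ratio of 0.11 in the lowest of its 4 probe sets. SUPT16H, of the FACT histone chaperone, read 2196 and 3101. In the list of S phase checkpoint and fork repair, 9 of 14 genes were analysed, and RAD51AP1 (0.47) and MSH6 (0.18) had the log2 ratios of largest size.

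Replication genes and mitotic genes were set side by side because both are read as markers of dividing cells. The 26 mitotic genes had a median log2 ratio of 0.48, from 0.19 to 0.94, and all 26 lay above the all-gene median, against 30 of 54 replication genes. At least 1.5-fold higher were 10 of 26 mitotic genes (38.5%) and 4 of 54 replication genes (7.41%), where 11.2% of all genes were. Of all genes at or above the 75th percentile of signal, 60.2% lay above the all-gene median and 11.9% were at least 1.5-fold higher. After loess the medians were 0.21 and -0.07. With 1 array per group the difference between the lists could not be tested. Both lists were also chosen with earlier results of these data known, so the contrast is not an independent one.

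**Figure D4:**
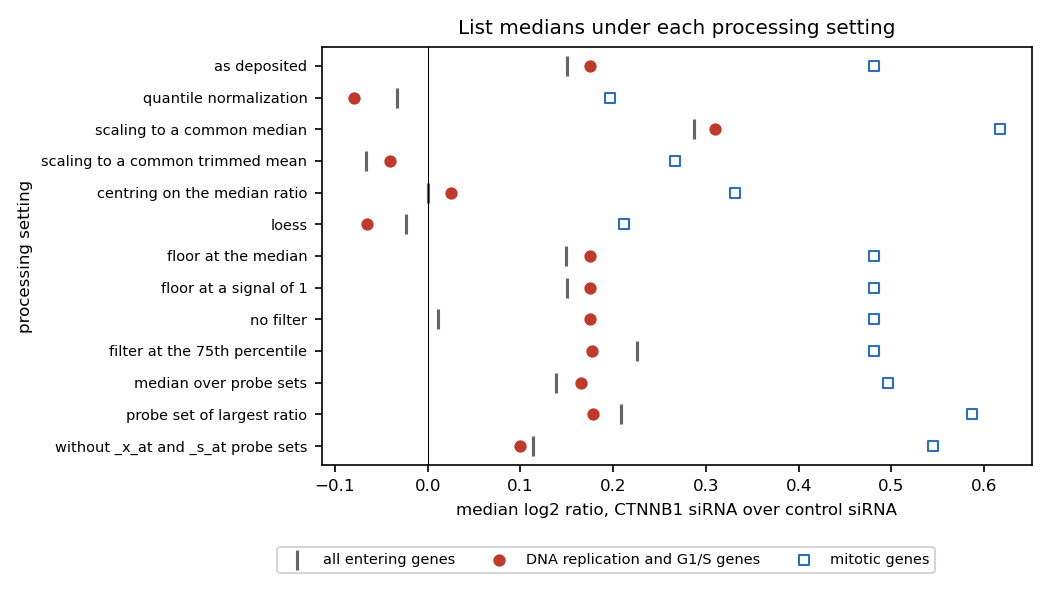
Median log2 ratio of CTNNB1 siRNA over control siRNA for all genes (grey bars), the DNA replication and G1/S genes (red circles) and the mitotic genes (open squares) in the deposited scaling and under 12 alternative settings. The red circles lie close to the grey bars on both sides of 0 in the 5 settings that rescale the arrays, lie apart from them with no filter (0.17 against 0.01), and the squares lie to the right of both in every setting shown.

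Direction for the replication genes as a group could not be given apart from the scaling of the arrays. Their median was 0.17 as deposited and 0.31 with the arrays scaled to a common median, but -0.04 with a common trimmed mean, -0.08 after quantile normalization and -0.07 after loess. The split of all genes moved with it, from 11.2% at least 1.5-fold higher and 7.61% lower as deposited to 19.4% and 4.98% with a common median and 4.69% and 14.2% with a common trimmed mean. The number of members above 0 was 40 as deposited and ran from 21 to 48 over these scalings. Relative to the median of all genes, the members' median stayed between -0.05 and 0.03 in every scaling of the arrays. E2F3 was at least 1.5-fold higher in all 12 settings in which a probe set of it passed, and UHRF1 in 11 of 13, the exceptions being quantile normalization and loess. MCM10 and CCNE1 were so in 9 of 13 each.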

How the data were processed

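The signal intensities were made by the authors with MAS5, per the submitters' processing notes, which gives 1 linear signal per probe set; MAS5's version and target intensity were not given in the sources used here. In the deposited table were 54675 probe sets on 2 arrays. Names came from GEO's platform annotation (41097 probe sets with 1 symbol, 1801 with several, 11777 unnamed here), updated through Entrez numbers to RefSeq for 41043.

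Log2 ratios were computed from the deposited intensities without further normalization. Signals under the 25th percentile (13.8) were set to it, a probe set entered at a mean signal of at least 49.1, the median of all values, and a gene took its entering probe set of highest mean signal. Medians were 51.3 (control) and 46.7, and 2% trimmed means 233 and 271. Calls were fixed sizes, 2-fold and 1.5-fold; the number of arrays limits the precision, and no test was made. Scripts (Python 3.11.15, pandas 2.3.3, statsmodels 0.14.6 for loess with a span of 0.3) were tested on simulated data. The 12 alternatives covered scaling, floor, filter and choice of probe set. Named were all 54 members, CTNNB1, and of each further list the genes past 1.5-fold and the 2 of largest ratio. The members and lists were chosen with earlier results of these data known. Promoters came from RefSeq (GRCh38.p14).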

Additional observations from a re-analysis of the deposited data

How the results depend on the processing

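The number of members at least 2-fold higher, 1 as deposited, was 0 after quantile normalization, loess, centring on the median ratio, scaling to a common trimmed mean, with a gene's median probe set value and without _x_at and _s_at probe sets. It was 3 (E2F3, MCM4 and MCM10) when the most changed probe set stood for a gene. Members at least 1.5-fold higher, 4 as deposited, numbered 1 after quantile normalization and after loess, 2 with a common trimmed mean, 11 with a common median, 8 with the most changed probe set and 7 when probe sets were represented by their median. Members at least 1.5-fold lower, 0 as deposited, numbered 1 with a common trimmed mean and with centring (GINS4), 1 with the median over probe sets and without _x_at and _s_at probe sets (POLA2), and 6 with the most changed probe set. Without _x_at and _s_at probe sets 40 members were left, and the 4 at least 1.5-fold higher were CCNE1, MCM4, RFC2 and UHRF1. Represented by its median probe set, CTNNB1 was at -0.97 on the log2 scale, just short of 2-fold. The members' median, 0.17 as deposited, ran from -0.08 (quantile normalization) to 0.31 (a common median) over the 12 alternatives, with its sign turned in 3. Both floors and the filters changed no count of members past a fold. The causes were not tested. Depth has no counterpart here, and dim probe sets, such as those of GINS4, E2F5 and DBF4B, limit what can be read.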
